A study of Mus musculus with 9 samples.

Results

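Gene expression in the gastrocnemius, a calf muscle made mostly of fast fibres, was compared between castrated and sham-operated mice. All 6 arrays of the series with a placebo pellet were used, of 9 arrays in all: 3 from sham surgery with a placebo pellet and 3 from castration with a placebo pellet. The mice, young adults of the outbred CD-1 stock, were killed unfasted 14 days after the operation. Each array held RNA pooled from 3 animals, 12 animals were treated per group, and the labels call the 3 arrays of a group independent biological replicates. The other 3 arrays, from castrated mice with a 2.5 mg testosterone pellet released over 60 days, entered only the shared estimate of the spread. The comparison covered every gene with a probe set annotated to it alone, read through its brightest probe set, which gave 18194 genes. Values are log2 expression levels, differences are log2 castration minus sham, and p-values come from limma, two-sided, and measure the spread between pools. The 3 values of a group are given in the order of replicates 1, 2 and 3.

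Testosterone made in the testes enters muscle cells and binds the androgen receptor, a transcription factor that the hormone activates. Castration removes that source. In muscle, androgens are known for keeping fibre size through protein synthesis, polyamine synthesis and restraint of protein breakdown, and limb muscles of rodents are known to respond less than the perineal muscles. The labels used here give no hormone level or muscle weight, and no array measure checks the castration itself.

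The fibre markers matched the labelled tissue. Myh4, the myosin heavy chain of the fastest fibres, read 13.70, 13.67 and 13.78 in sham and 13.72, 13.83 and 13.75 after castration, near the top of the scale. Muscle creatine kinase, Ckm, lay between 13.97 and 14.02 on all 6 arrays. Of 16 fibre markers measured, 10 were higher and 6 lower after castration, with a median difference of 0.02.

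Sham 2 stood apart from the other sham arrays. Its mean correlation with the other 8 arrays was 0.973, its values spread with an SD of 1.74 against 1.86 for sham 1, and 2141 of its probe sets lay above log2 8 against 2569 in sham 1. It was the lowest of the 6 arrays in 37.4% of genes and the highest in 28.4%. In 765 genes it lay more than 1 below the mean of sham 1 and sham 3 and in 222 genes more than 1 above it, against 30 below and 37 above for sham 1 and 32 below and 202 above for sham 3, each set against the other sham arrays. The hybridization control BioB averaged 7.15 on sham 2, 8.01 and 8.0 on sham 1 and sham 3, and from 7.36 to 8.34 on the castration and testosterone arrays. The Gapdh 3′ minus 5′ difference of sham 2, 0.22, lay below that of sham 3, 0.284. Testosterone 2, which entered only the shared spread, had a Gapdh difference of 1.098, against 0.022 to 0.284 on the other 8 arrays. Its beta-actin 3′ minus 5′ difference was 1.563, against 0.202 to 0.676. The part of RNA quality or labelling in the values of sham 2 or testosterone 2 was not tested.

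The gap depended on the level of the gene. For the 2430 genes with a mean between log2 6 and 8, sham 2 lay 0.522 below the other sham arrays in the median gene, and the median castration minus sham difference was 0.183. Without sham 2 that median was 0.011. For the 10678 genes under log2 4 the same 3 medians were 0.069, -0.033 and -0.000. So the median gene of middle brightness stood 0.183 above sham with all arrays. Many list medians below are given with and without sham 2, and counts of genes use all 6 arrays unless stated.

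**Figure D1:**
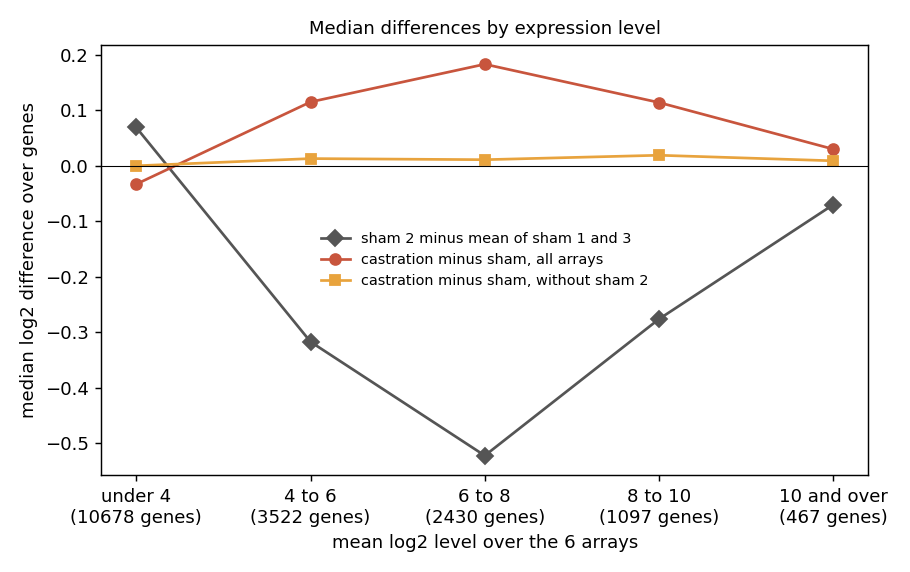
Median log2 difference over genes (vertical axis) in 5 bins of the mean log2 level over the 6 arrays (horizontal axis, gene numbers under each bin), for sham 2 against the mean of sham 1 and sham 3 (grey), castration minus sham with all arrays (red) and without sham 2 (orange). The grey line is lowest at log2 6 to 8, where the red line peaks at 0.183, while the orange line stays between -0.000 and 0.019.

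With all 6 arrays, 0 of 18194 genes (0.0%) passed an adjusted p of 0.05 in either direction, with 0.103 as the lowest value. Before adjustment, 562 genes (3.09%) stood higher in castrated mice at p under 0.05 and 297 (1.63%) stood lower, 4.72% together. The 3 castration arrays lay wholly above the 3 sham arrays in 941 genes (5.17%) and wholly below them in 676 (3.72%). Without sham 2, 7 genes (0.0385%) passed the adjusted test, all of them lower after castration, and the unadjusted counts were 336 higher (1.85%) and 375 lower (2.06%), 3.91% together. The higher count turned on other arrays as well: it was 1549 without sham 3, 339 without castration 1 and 319 without castration 2. The lower count was 726 without sham 3, 172 without castration 1 and 164 without castration 2. In sign alone, 9617 of the 18194 genes were higher after castration, and the counts of each list below stand against these shares.

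Each list of higher or lower genes was chosen with or without sham 2, and that choice bears on where sham 2 lies in it. Among the 562 genes that were higher with all arrays, sham 2 was the sham array farthest from castration in 448 and nearest in 41, and among the 297 lower genes it was farthest in 138 and nearest in 94. In the lists made without it, sham 2 was nearest to castration in 126 of 336 higher genes and 289 of 375 lower genes. Of the 562, 250 (44.5%) were also under 0.05 without it. Those 250 made up 74.4% of the 336 found without sham 2. Of the 297 lower genes with all arrays, 178 (59.9%) were shared, which is 47.5% of the 375. All 562 and all 297 kept their sign without sham 2. Of 26 genes higher by at least 1 with separate groups, 11 were still higher by at least 1 without sham 2, as against 14 of 19 lower genes.

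The 7 genes that fell without sham 2 handle polyamines, amino acids, glucose, zinc, a signalling lipid and a vitamin form of nicotinamide. Smox, spermine oxidase, which turns spermine back into spermidine, read 10.63, 9.65 and 10.09 in sham and 7.48, 8.09 and 8.03 after castration. Every castration array lay at least 1.5 units below every sham array. The difference was -2.26 with all arrays (adjusted p 0.103) and -2.49 without sham 2 (adjusted p 0.0281). Over the mean of its 2 probe sets the difference was smaller, at -1.18 with all arrays. Odc1, ornithine decarboxylase, which commits ornithine to the same pathway, read 9.99, 9.17 and 9.95 against 8.28, 8.69 and 8.73, and its groups did not overlap. Its difference went from -1.14 to -1.41 (adjusted p 0.0317 without sham 2). Sham 2 was the lowest sham array for both enzymes.

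Spns2, which exports sphingosine 1-phosphate from cells, read 7.95, 7.25 and 7.81 in sham and 6.08, 6.15 and 6.27 after castration. The castration arrays were tight, with an SD of 0.09, and the difference was -1.50 with all arrays and -1.72 without sham 2 (adjusted p 0.0174). Slc30a2, a zinc transporter that loads vesicles, read 5.83, 5.03 and 5.92 against 4.04, 4.30 and 4.61. Its difference of -1.28 became -1.56 (adjusted p 0.0281).

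For the remaining 3 genes, sham 2 sat with or near the castration arrays. Slc2a3, the glucose transporter GLUT3, read 6.07, 4.14 and 6.14 in sham and 3.75, 4.06 and 4.16 after castration. Sham 2 lay just below castration 3, so the groups overlapped. The difference was -1.46 with all arrays (adjusted p 0.838) and -2.11 without sham 2 (adjusted p 0.0174). Nmrk2, the muscle kinase that makes NAD precursor from nicotinamide riboside, read 9.63, 7.32 and 9.21 against 6.95, 6.58 and 6.90, and its difference went from -1.91 to -2.61 (adjusted p 0.0281). Slc38a2, a sodium-coupled transporter of neutral amino acids, read 8.89, 8.02 and 9.11 against 7.72, 8.02 and 7.79, and its difference went from -0.83 to -1.16 (adjusted p 0.0317). With all arrays the adjusted p of Nmrk2 and Slc38a2 was 0.838, so their pass rests on leaving out sham 2.

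**Figure D2:**
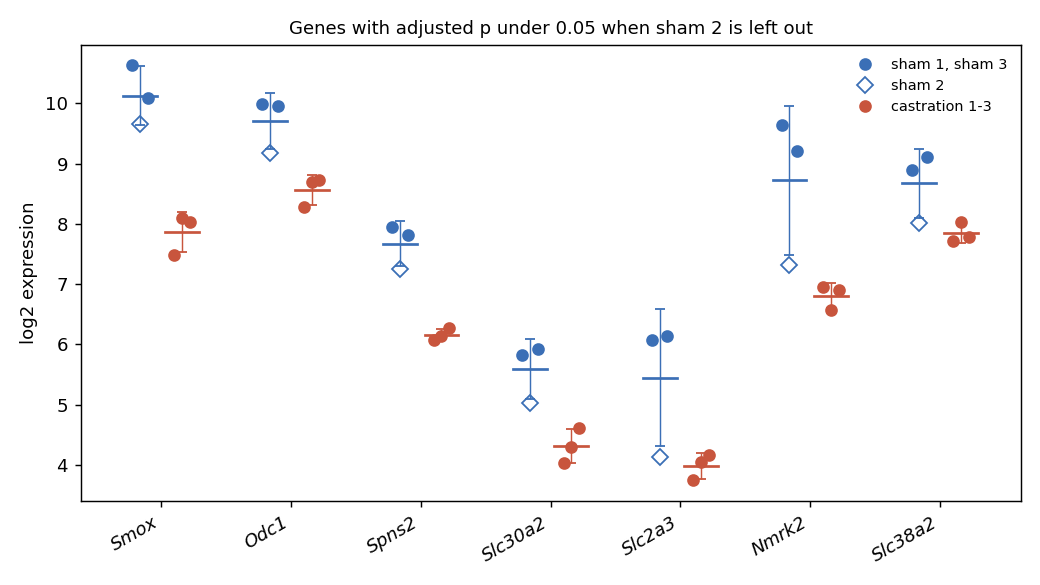
Log2 expression (vertical axis) of the 7 genes with an adjusted p under 0.05 without sham 2: sham 1 and sham 3 (filled blue), sham 2 (open diamond) and castration 1 to 3 (red), with bars for the mean and SD of all 3 arrays of a group. Sham 2 is the lowest sham array for each gene, and for Slc2a3, at 4.14, it lies among the castration arrays.

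3 more lower genes had small spreads within the groups. Mss51, a mitochondrial protein of skeletal muscle, read 11.89, 11.89 and 12.12 in sham and 10.99, 10.98 and 11.03 after castration, a difference of -0.97 (SE 0.11, adjusted p 0.103) that was -1.0 without sham 2 (adjusted p 0.0795). Inmt, an N-methyltransferase of indole amines, read 7.10, 6.59 and 7.04 against 5.61, 5.25 and 5.60, with a difference of -1.43. Serpinb6a, an intracellular inhibitor of serine proteases, read 10.23, 10.01 and 10.41 against 9.38, 9.53 and 9.43. In all 3 the groups were separate and the castration arrays lay close together. With both sham 2 and testosterone 2 left out, the second being the other array of low mean correlation (0.983), Mss51 (adjusted p 0.0257), Inmt (0.012) and Serpinb6a (0.0302) passed, among 13 lower and 5 higher genes that did so, and the 5 higher genes were Dbp, Per3, Slc7a2, Gstm2 and Abhd18.

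Among the other lower genes of smallest p, Rnf126, a ubiquitin ligase, differed by -0.85 and Tfcp2l1, a transcription factor of the CP2 family, by -0.89. The kinesin Kif3c differed by -0.49, the smoothelin-like Smtnl2 by -0.80, the nuclear envelope protein Syne4 by -0.56 and the cilium filament protein Tekt1 by -0.46. Tmem37 differed by -0.78, Cdkn2aipnl by -0.61 and Prkag2, a regulatory subunit of AMP-activated kinase, by -0.39. None of these 9 passed the adjusted test with all arrays or without sham 2, and each had separate groups. Syne4, Tekt1 and Prkag2 had sham means under log2 4, close to the dimmest values, and only 2 of 4 probe sets of Prkag2 shared its sign, which turned (0.019) with probe sets prone to cross-hybridization left out.

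Higher genes of smallest p were spread over many functions. Abhd18, a hydrolase-like protein, read 3.54, 3.20 and 3.20 in sham and 4.55, 4.86 and 4.45 after castration. Aldh7a1, an aldehyde dehydrogenase of lysine breakdown, read 6.08, 5.94 and 5.94 against 6.59, 6.59 and 6.77. Gstm2, a glutathione transferase, read 6.66, 7.25 and 6.99 against 8.12, 8.29 and 8.52. The groups were separate for all 3, and for Gstm2 sham 2 was the sham array nearest to castration, so its difference of 1.34 became 1.48 without it. Prepl, a prolyl endopeptidase-like enzyme, read 4.92, 4.49 and 5.28 against 6.23, 5.99 and 5.91, and here sham 2 was farthest, so 1.14 became 0.94.

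The matrix protein gene Egflam was higher by 0.83, the membrane protein gene Itm2a by 0.63, Ccdc50 by 0.61, the ubiquitin ligase Trim35 by 0.63 and the mitochondrial adenylate kinase Ak4 by 0.65, with 2 of its 5 probe sets of that sign and -0.103 without the probe sets prone to cross-hybridization. Mllt3, a reader of acylated histones, was higher by 0.78, Adnp2 by 0.45 and the keratin-like Krt222 by 0.45. None of these 8 passed, their adjusted p with all arrays running from 0.361 for Egflam to 0.485 for Mllt3. Adnp2, Krt222 and Ak4 were dim, with sham means of 3.00, 3.23 and 3.76. Zfp275 (4.82, 4.19 and 5.07 against 5.52, 5.62 and 5.69) and Rdm1 (6.96, 7.55 and 7.0 against 7.53, 7.69 and 7.44) were among the higher genes of smallest p without sham 2. Sham 2 lay below the other sham arrays in Zfp275 and above them in Rdm1, whose groups overlapped because of it.

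The clock genes Dbp and Per3 were among the 20 higher genes of smallest p. The circadian clock is a transcription loop in which ARNTL and its partner bind E-box sequences and switch on the Per genes, Ciart and the PAR bZIP factors Dbp and Tef, whose products in turn bind D-boxes. Dbp read 7.72, 7.90 and 7.93 in sham and 8.97, 9.08 and 8.85 after castration, so the gap between the groups was many times their SD of 0.11 each. Its difference was 1.11 (SE 0.13, adjusted p 0.103) and 1.14 without sham 2. Per3, a period gene, read 4.43, 4.18 and 4.49 against 5.33, 5.28 and 5.16, a difference of 0.89 and 0.80 without sham 2, though only 3 of its 6 probe sets shared the sign.

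Per1 read 4.23, 4.61 and 4.04 in sham and 5.84, 5.21 and 4.63 after castration, a difference of 0.93 in which castration 3 lay next to sham 2. Ciart, a repressor of the loop, read 3.88, 4.05 and 3.82 against 4.54, 4.25 and 4.14. Arntl, the activator whose level runs opposite to these genes over the day, read 6.06, 5.72 and 6.03 against 4.90, 5.07 and 5.09. Its groups were separate, with a difference of -0.92 (adjusted p 0.838). Nr1d2, a repressor of Arntl, was higher by 0.49 (8.81, 8.20 and 8.80 against 9.18, 9.09 and 9.02), and its relative Nr1d1 read 7.51, 7.76 and 7.53 against 7.47, 7.51 and 7.45.

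Of 18 core clock genes measured, 4 were higher and 2 lower at an unadjusted p under 0.05, against 3.09% and 1.63% of all genes, and the list median was -0.01. Without sham 2 these counts were 3 and 1, against 1.85% and 2.06%. Of 17 clock output genes, 5 were higher and 0 lower at an unadjusted p under 0.05 (3.09% and 1.63% of all genes). Their median was 0.11, and 0.01 without sham 2. Without that array 4 outputs were higher and 1 lower at that level (1.85% and 2.06% of all genes). Among these outputs Klf15, a factor that controls amino acid and lipid use in muscle, read 6.63, 6.99 and 6.57 against 7.20, 7.19 and 7.28, and Tef read 8.84, 8.86 and 8.79 against 9.10, 8.92 and 9.09. In Klf15 sham 2 was the sham array nearest to castration, and its difference went from 0.49 to 0.62 without it. Bhlhe40, another repressor, was higher by 0.34 and Tspan4 by 0.39. Per2 (3.26, 4.17 and 3.02 against 3.26, 3.14 and 3.26), Cry1 and Clock overlapped between the groups. The labels give no time of day for the dissection, and the part of sampling time in these values was not tested.

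Promoter windows, the 250 bases before a gene's start in RefSeq on build GRCm38.p6, were searched on both strands for CACGTG (E-box, the same on both strands), TTATGTAA (D-box), AGGTCA (ROR element), TGTTTAC (FoxO element) and AGAACA (steroid half-site). These letters occur in 6.02%, 0.819%, 14.0%, 3.17% and 16.1% of 32851 such windows. Among 9 clock genes set for this search 8 had a window, 4 of these 8 held an E-box (Per1, Ciart, Tef and Klf15), 1 a D-box (Per3), 2 the ROR letters and 1 the half-site. The 9 were picked from the clock genes described above as higher or lower, and Per2, Cry1, Clock and Nr1d1 were not searched. A gene counted if any of its windows held the letters, whereas the shares are per window. So these counts do not test whether the letters are commoner in clock genes. The windows of Per3, Ciart and Klf15 are shown because each repeats a motif, and that of Per1 because it holds an E-box beside the ROR letters. Tef, which holds an E-box in each of its 2 windows, is not shown. Capitals mark the matched letters. Per3 holds 2 D-boxes, starting 205 and 158 bases before the start (chr4:151044666-151044915, minus strand). Ciart holds 3 E-boxes at 116, 58 and 44 (chr3:95882229-95882478, minus strand), and Klf15 holds 2 at 228 and 172 (chr6:90462326-90462575, plus strand). Per1 holds an E-box at 166 and the ROR letters, on the opposite strand, at 137 (chr11:69098699-69098948, plus strand). A match is a description of the letters and not a bound site.
Per3: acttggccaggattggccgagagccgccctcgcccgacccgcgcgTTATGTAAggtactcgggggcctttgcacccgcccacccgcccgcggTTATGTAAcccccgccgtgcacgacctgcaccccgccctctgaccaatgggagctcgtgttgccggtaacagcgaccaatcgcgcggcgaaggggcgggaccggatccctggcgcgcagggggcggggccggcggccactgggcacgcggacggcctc
Ciart: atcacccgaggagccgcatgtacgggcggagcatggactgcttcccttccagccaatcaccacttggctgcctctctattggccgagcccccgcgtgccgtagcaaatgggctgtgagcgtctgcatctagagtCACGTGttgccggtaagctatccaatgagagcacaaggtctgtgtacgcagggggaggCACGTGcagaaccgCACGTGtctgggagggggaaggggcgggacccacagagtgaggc
Klf15: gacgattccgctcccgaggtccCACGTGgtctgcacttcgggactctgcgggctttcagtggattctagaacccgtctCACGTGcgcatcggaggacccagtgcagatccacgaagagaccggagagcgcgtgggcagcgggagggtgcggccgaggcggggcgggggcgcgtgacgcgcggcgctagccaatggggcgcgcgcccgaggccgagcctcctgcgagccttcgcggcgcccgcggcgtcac
Per1: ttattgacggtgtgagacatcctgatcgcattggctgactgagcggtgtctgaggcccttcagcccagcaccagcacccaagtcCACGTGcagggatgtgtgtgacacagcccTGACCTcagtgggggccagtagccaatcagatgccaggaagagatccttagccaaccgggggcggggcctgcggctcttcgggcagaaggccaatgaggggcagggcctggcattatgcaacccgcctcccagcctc

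The 7 genes that fell without sham 2 had windows for 6, and the half-site letters occurred in 0 of them, as did the E-box and D-box, while Spns2 held the ROR letters. Of 6 growth arrest genes also searched, all picked as higher after castration, 5 had a window. The FoxO letters, E-box, D-box and half-site occurred in 0 of these 5, and Ddit4l held the ROR letters. No match says only that these letters are not in this window.

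Growth arrest and stress genes were the list with the highest median among the pathways. Of 26 measured, 17 were higher, 6 were higher at an unadjusted p under 0.05 (3.09% of all genes) and 0 lower (1.63%), with a median of 0.22 that was 0.05 without sham 2, though 7 were then under 0.05. Sesn1, a p53 and FoxO target that restrains mTOR complex 1, read 5.99, 6.48 and 6.52 in sham and 7.72, 7.84 and 7.47 after castration. Its difference was 1.35 (SE 0.21, adjusted p 0.271), 1.43 without sham 2. Cdkn1c, the cell cycle inhibitor p57, read 6.25, 6.57 and 6.57 against 7.22, 7.46 and 7.02, and Chac1, which degrades glutathione under amino acid stress, read 6.42, 7.11 and 7.39 against 7.83, 7.55 and 8.26. The groups were separate for each of these, with sham 1 the lowest array in all 3.

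Ddit4l, another brake on mTOR, was higher by 0.39 (9.91, 10.21 and 10.08 against 10.43, 10.40 and 10.55). Gadd45a, induced by denervation and stress, was also higher by 0.39, at levels of 3.70 to 4.30 near the dim end. Foxo3, the transcription factor behind much of the atrophy programme, was higher by 0.36, and Foxo1 was not (5.97, 5.99 and 6.05 against 5.92, 5.99 and 5.91). Cdkn1a, the inhibitor p21, read 6.80, 7.49 and 7.11 against 7.76, 7.75 and 7.33, so that sham 2 alone overlapped the castration arrays.

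**Figure D3:**
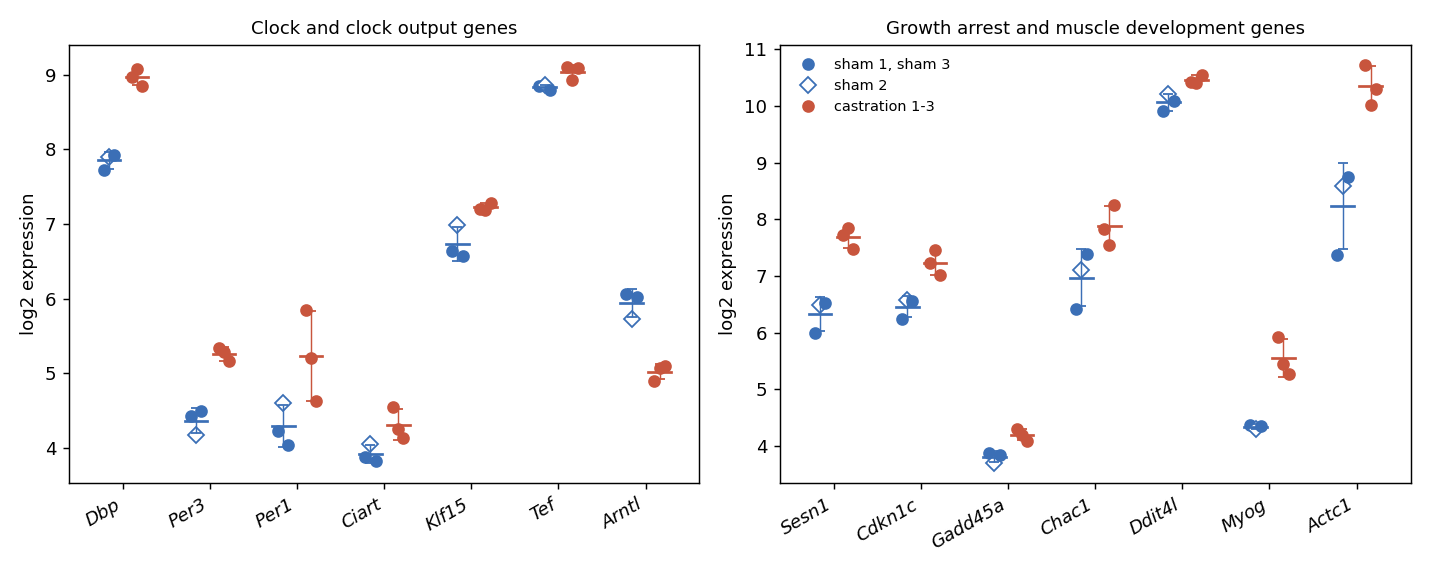
Log2 expression (vertical axis) of 7 clock and clock output genes (left) and 7 growth arrest and muscle development genes (right) on each array: sham 1 and sham 3 (filled blue), sham 2 (open diamond), castration 1 to 3 (red), with bars for the mean and SD of a group. Dbp and Per3 separate the groups by about 1 unit with small spread, Arntl lies lower after castration, and Actc1 shows the widest gap at the right.

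The classical atrophy ligases differed little. Fbxo32, atrogin-1, read 10.39, 10.42 and 10.05 in sham and 10.23, 10.01 and 10.15 after castration, and Trim63, MuRF1, read 9.54, 9.73 and 9.77 against 9.54, 9.61 and 9.56. Both overlapped, and both means were lower after castration, by -0.16 and -0.11. Of 20 ligases and atrophy genes, 1 was higher and 1 lower at an unadjusted p under 0.05 (3.09% and 1.63% of all genes). Fbxo31 was higher by 0.21 and Trim54, a MuRF relative, lower by -0.26 (11.02, 11.07 and 11 against 10.78, 10.70 and 10.85). Asb2 differed by -0.27 and Cblb, a ligase for the IGF pathway, by 0.34.

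Of 33 autophagy and lysosome genes, 4 were higher and 1 lower at that level (3.09% and 1.63% of all genes), with a median of 0.08. Without sham 2, 3 were higher and 1 lower, with a median of 0.04. Ctsl, the lysosomal protease cathepsin L, read 9.51, 9.28 and 9.28 against 10.37, 10.26 and 10.28, a difference of 0.94 (adjusted p 0.485) in the probe set used, while the gene's other probe set had the opposite sign. Pink1, the kinase that marks damaged mitochondria, was higher by 0.30 (10.86, 10.86 and 10.75 against 11.17, 11.16 and 11.03). Map1lc3a, an autophagosome membrane protein, was lower by -0.55 (10.46, 10.51 and 10.59 against 9.84, 10.10 and 9.97).

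Proteasome subunits were higher in 30 of 40 genes, but sham 2 was the lowest of the 6 arrays in 25 of them. Their median was 0.08 with all arrays and 0.00 without sham 2, and 1 of 40, Psmc6, was under an unadjusted 0.05 (4.72% of all genes). The heat shock and chaperone list had like counts: 33 of 43 were higher, sham 2 was lowest in 32, and the median went from 0.17 to 0.04. Hsp90aa1, a major cytosolic chaperone, read 6.93, 5.93 and 6.92 against 7.33, 7.31 and 7.12. Hspb3, a small heat shock protein of muscle, read 8.47, 8.44 and 8.70 against 8.81, 8.86 and 8.80.

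In the IGF and insulin pathway, the ligand Igf1 was set apart by sham 2. It read 6.99, 3.86 and 6.49 in sham and 6.61, 6.94 and 6.28 after castration, so the castration arrays lay within the span of sham 1 and sham 3 or just below it. Igfbp5, the main IGF binding protein of muscle, read 10.76, 10.60 and 11.08 against 11.18, 11.40 and 11.49, and Igfbp3, dim at a sham mean of 3.60, was higher by 0.39. Igf1r, the receptor, was higher by 0.48, with 3 of 5 probe sets of that sign. Htra1, a protease that cleaves binding proteins, was lower by -0.47 and by -0.62 without sham 2. The list of 16 had a median of 0.19 with all arrays and -0.02 without sham 2.

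Downstream inhibitors of these receptors were the larger differences. Grb10, an adaptor that blocks the insulin and IGF receptors, read 6.17, 5.41 and 6.31 in sham and 7.15, 7.46 and 7.01 after castration, and 1 of its 3 probe sets shared that sign. Socs2, which damps growth hormone signalling, read 4.77, 3.23 and 5.58 against 6.05, 6.49 and 6.42, with 3 of 6 probe sets sharing the sign. Sham 2 was the lowest array for both, so Grb10 went from 1.25 to 0.97 and Socs2 from 1.79 to 1.14 without it, and neither passed (adjusted p 0.667 and 0.838). Of 36 insulin and mTOR genes, 29 were higher. At an unadjusted p under 0.05, 5 were higher and 0 lower (3.09% and 1.63% of all genes), and 4 and 0 without sham 2. Their median was 0.20, then 0.07, and sham 2 was lowest in 25. Irs1, the insulin receptor substrate, read 9.31, 8.72 and 9.31 against 9.61, 9.50 and 9.59, and Pik3ca, the kinase subunit, was higher by 0.51.

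Of 40 genes of myostatin, activin and TGF-beta signalling, 2 were higher and 2 lower at an unadjusted p under 0.05 (3.09% and 1.63% of all genes). Tgfb3, a ligand, read 7.42, 6.97 and 7.41 in sham and 7.72, 7.75 and 7.73 after castration. Ltbp4, which holds latent TGF-beta in the matrix, was higher by 0.65, Gdf5, a BMP ligand, was lower by -0.31 and Smad3, a signal carrier, by -0.31. Gdf5 was dim, with a sham mean of 3.23. The activin receptor Acvr2b and the antagonist Fst overlapped between the groups. The list median was 0.12 and 0.01 without sham 2.

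Among structural genes the widest gap belonged to Actc1, the cardiac actin that skeletal muscle makes during development and regeneration. It read 7.37, 8.59 and 8.74 in sham and 10.73, 10.02 and 10.30 after castration. The lowest castration array lay more than 1 unit above the highest sham array, sham 1 was the lowest of all, and the difference was 2.12 (SE 0.38, adjusted p 0.419), 2.29 without sham 2. Mybph, a myosin binding protein, read 7.36, 9.57 and 8.87 against 10.30, 10.55 and 10.72. Sham 2 was the sham array nearest to castration there, so 1.92 became 2.41. The embryonic and neonatal myosins Myh3 and Myh8 stayed at 2.97 to 3.33, near the dimmest values. Of 19 developmental and remodelling genes, 2 were higher at an unadjusted p under 0.05 (3.09% of all genes), Actc1 and Dysf, a membrane repair protein (0.40). The list median was 0.08, then 0.00.

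Myog, myogenin, which drives muscle differentiation and responds to denervation, read 4.38, 4.30 and 4.35 in sham and 5.93, 5.46 and 5.28 after castration. Sham was tight, with an SD of 0.04, and the difference was 1.21 (SE 0.19, adjusted p 0.271), nearly the same without sham 2 at 1.19. The other myogenic factors did not share it: Myod1 read 5.49, 4.49 and 5.28 against 4.86, 5.10 and 5.41, Myf6 read 9.62, 8.65 and 9.31 against 9.18, 9.05 and 9.10, and Pax7 and Myf5 stayed at 2.70 to 3.17. Cdh4, a cadherin, was higher by 0.80 (5.86, 5.94 and 6.31 against 7.01, 6.76 and 6.75) and Notch1 by 0.19 (-0.006 after renewed quantile normalization, and 1 of 2 probe sets of that sign), while Itga7, the laminin receptor of fibres, was lower by -0.21. Of 31 genes of this list 3 were higher and 0 lower at an unadjusted p under 0.05 (3.09% and 1.63% of all genes). The counts were also 3 and 0 without sham 2, and the median went from 0.05 to 0.01.

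At the neuromuscular junction, whose genes are made by a few nuclei of each fibre, 3 of 27 genes were higher and 0 lower at that level (3.09% and 1.63% of all genes). Myog and Gadd45a, which belong to this list too, were 2 of the 3. Without sham 2, 2 were higher and 0 lower, and the list median went from 0.13 to 0.03. Sham 2 was the lowest of the 6 arrays in 17 of the 27. Chrna1, the receptor's alpha subunit, read 6.36, 5.98 and 6.20 against 6.70, 6.65 and 6.36, and Chrne, the adult epsilon subunit, read 4.72, 4.56 and 4.85 against 5.0, 5.39 and 5.30. The fetal subunit Chrng was dim throughout, at 3.45 to 3.59, and Chrnd and the receptor kinase Musk overlapped. In a bulk sample, fewer cells or nuclei of a type and less RNA in each cannot be told apart.

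Calcium handling genes had a positive difference in 23 of 27, as did 9617 of all 18194 genes, and their median of 0.06 was 0.07 without sham 2. At an unadjusted p under 0.05, 3 were higher and 0 lower (3.09% and 1.63% of all genes), and 2 and 1 without sham 2. Cacnb1, the beta subunit of the dihydropyridine receptor, was higher by 0.50 (8.49, 8.38 and 8.66 against 8.91, 9.09 and 9.05), Cacna1s, its pore subunit, by 0.24 and Stac3, which couples it to calcium release, by 0.18. Casq2, a calcium buffer of slow fibres, was higher by 0.87 with all arrays and by 0.54 without sham 2, which read 6.20. The catalytic calcineurin subunit Ppp3ca, which passes calcium signals to NFAT, read 8.73, 8.66 and 8.81 against 9.02, 9.10 and 9.10, a difference of 0.34 (SE 0.07, adjusted p 0.512).

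Fibre type genes overlapped between the groups for the myosins. Myh2 and Myh7, the heavy chains of fast oxidative and slow fibres, differed by 0.09 and 0.14, the latter -0.136 with array weights and -0.074 without castration 1, and Myh7 ranged from 11.20 to 11.93 within sham. Of 20 fast sarcomere genes, 0 were higher and 2 lower at an unadjusted p under 0.05 (3.09% and 1.63% of all genes). The 2 were Mylk4, a kinase of the myosin light chain family (11.07, 10.78 and 11.04 against 10.43, 10.40 and 10.60), and Mylk2, the fast fibre light chain kinase, lower by -0.37. Myoz1, which anchors calcineurin at the Z disc, was lower by -0.20 with separate groups. Of 20 slow sarcomere genes 1, Casq2, was higher at that level (3.09% of all genes), and the median was 0.11, then -0.03 without sham 2.

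Genes that move glucose differed in opposite directions. Tbc1d4, which holds GLUT4 vesicles inside the cell until insulin acts, read 6.34, 5.47 and 5.92 in sham and 7.42, 7.36 and 7.0 after castration. Its relative Tbc1d1, which answers to contraction and AMP-activated kinase, read 6.86, 6.01 and 6.58 against 5.79, 5.92 and 5.85. Both pairs of groups were separate, with differences of 1.35 and -0.63, and 1.13 and -0.87 without sham 2. The sign of Tbc1d1 rests on the probe sets used: 3 of its 4 probe sets were lower, and with probe sets prone to cross-hybridization left out it differed by 0.155. Neither passed (adjusted p 0.419 and 0.838).

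The insulin-sensitive transporter itself, Slc2a4, read 10.84, 10.72 and 10.63 against 10.65, 10.48 and 10.60, so the fall of Slc2a3 without sham 2 had no counterpart of that size in it. Ppp1r3c, which targets a phosphatase to glycogen, read 11.56, 11.32 and 11.44 against 10.72, 10.91 and 10.65, a difference of -0.68 (SE 0.14, adjusted p 0.485). Fbp2, the muscle fructose bisphosphatase, read 8.48, 7.83 and 8.15 against 7.84, 7.20 and 7.28. Muscle glycogen phosphorylase Pygm stayed at 12.88 to 12.91. Of 42 genes of glycolysis, glucose uptake and glycogen, 2 were higher and 4 lower at an unadjusted p under 0.05 (3.09% and 1.63% of all genes). Their median was -0.02, then -0.01.

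Regulators of fuel oxidation had 6 of 32 genes higher and 2 lower at that level, against 3.09% and 1.63% of all genes. Without sham 2 both counts were 2, against 1.85% and 2.06%. Ppargc1a, the coactivator PGC-1 alpha, read 7.31, 6.20 and 6.80 in sham and 7.60, 7.91 and 7.14 after castration, and castration 3 lay below sham 1. Prkag3, the fast muscle subunit of AMP-activated kinase, read 9.22, 9.41 and 9.81 against 9.88, 10.06 and 9.91. Pdk1, which restrains pyruvate oxidation, was higher by 0.50, with 2 of its 4 probe sets of that sign. The list median was 0.18 and 0.08 without sham 2. The respiratory chain showed no such members: of 70 subunits 34 were higher, 36 lower and 0 under an unadjusted 0.05, with a median of -0.00. In the list of fatty acid uptake and oxidation 1 of 34 was under that level (4.72% of all genes). It was Aldh7a1, described above as an enzyme of lysine breakdown.

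NAD salvage genes other than Nmrk2 were small differences. Naprt was higher by 0.33, Nmnat1 by 0.48 and Bst1 by 0.19, and Nampt, the main salvage enzyme, read 8.01, 7.46 and 8.08 against 7.87, 8.08 and 7.65. Naprt and Bst1 were dim, with sham means of 3.60 and 2.64. Of the 19 genes 3 were higher and 1 lower at an unadjusted p under 0.05 (3.09% and 1.63% of all genes). Without sham 2 only Nmrk2 remained. Its relative Nmrk1 was dim, at 2.86 to 3.01.

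In the polyamine list of 18 genes, Smox and Odc1 were the only lower members at an unadjusted p under 0.05 (1.63% of all genes). Oaz2, an antizyme that inhibits Odc1, was higher by 0.39 (9.04, 8.91 and 9.19 against 9.51, 9.48 and 9.33). Spermidine synthase Srm, the acetyltransferase Sat1 and antizyme Oaz1 overlapped between the groups. The list median of 0.05 was 0.04 without sham 2.

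Amino acid carriers differed in both directions. Slc7a2, a transporter of arginine, lysine and ornithine, read 6.42, 6.27 and 6.69 in sham and 7.63, 7.64 and 7.38 after castration, a difference of 1.09 (SE 0.14, adjusted p 0.103) opposite in sign to that of Slc38a2. Gamt, which makes creatine from an arginine product, was higher by 0.84 (5.17, 4.86 and 5.50 against 5.94, 6.22 and 5.90). Slc38a3, a glutamine carrier, was lower by -0.40. Nos1, the neuronal nitric oxide synthase anchored to the fibre membrane, read 7.55, 6.77 and 7.40 against 7.15, 6.78 and 6.91, so only sham 2 overlapped. Of 33 genes, 2 were higher and 2 lower at an unadjusted p under 0.05 (3.09% and 1.63% of all genes), with a median of 0.01.

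Zinc genes other than Slc30a2 pointed both ways. Slc30a1, the exporter of the cell membrane, was higher by 0.56 (4.65, 4.45 and 4.76 against 5.28, 5.21 and 5.03), Slc39a13 by 0.43 and the zinc-sensing factor Mtf1 by 0.39. Only 1 of the 2 probe sets of Slc30a1 had that sign. The metallothioneins, which bind zinc and respond to glucocorticoids, were lower: Mt1 read 7.33, 6.78 and 6.86 against 6.45, 6.42 and 6.18, and Mt2 read 6.75, 5.51 and 5.57 against 5.48, 5.03 and 5.29. Of 22 genes 4 were higher and 2 lower at an unadjusted p under 0.05 (3.09% and 1.63% of all genes), with a median of 0.01. Without sham 2, 3 were higher and 3 lower. For sphingosine 1-phosphate, Spns2 was the only one of 21 genes under that level (4.72% of all genes), and the receptors S1pr1 and S1pr2 overlapped.

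**Figure D4:**
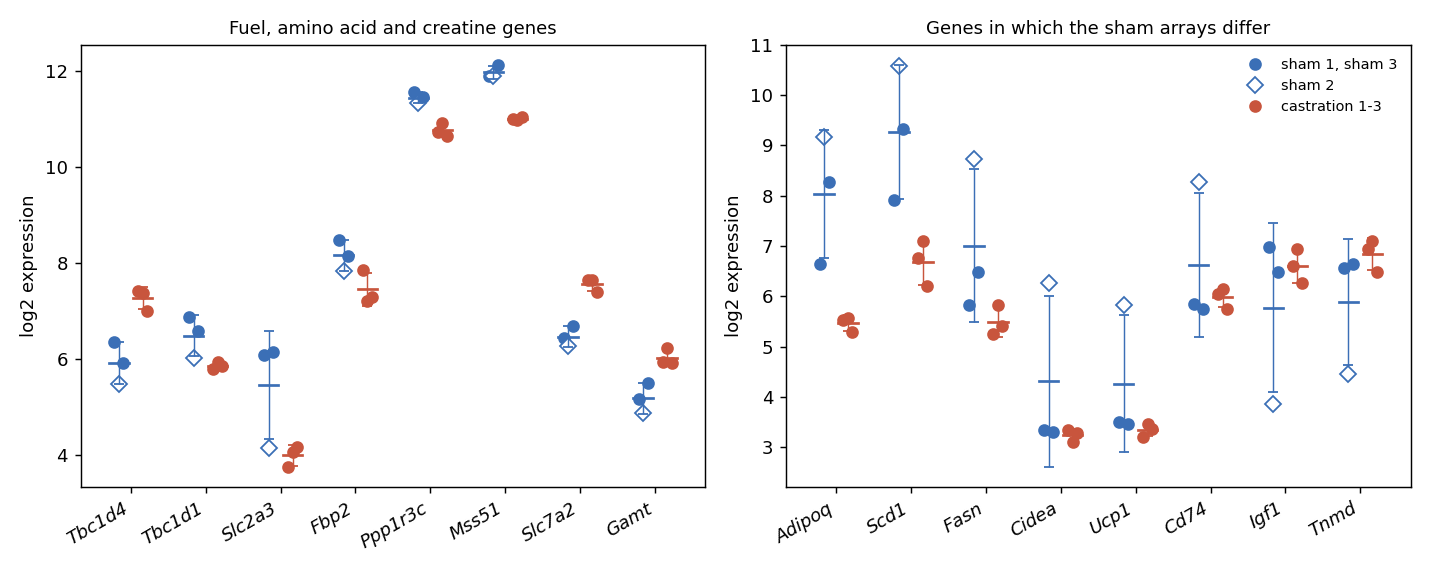
Log2 expression (vertical axis) on each array for 8 fuel, amino acid and creatine genes (left) and 8 genes in which the sham arrays differ (right): sham 1 and sham 3 (filled blue), sham 2 (open diamond), castration 1 to 3 (red), with bars for the mean and SD of a group. Tbc1d4 and Tbc1d1 lie on opposite sides of sham after castration, and sham 2 is the extreme sham array for every gene at the right.

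Steroid-responsive genes did not share one direction. Fkbp5, a chaperone of steroid receptors that androgens and glucocorticoids both induce, read 7.99, 7.43 and 7.22 in sham and 6.30, 6.32 and 6.58 after castration, a difference of -1.15 (SE 0.18, adjusted p 0.271). Hr, a corepressor of nuclear receptors, read 6.29, 5.98 and 6.34 against 4.88, 5.21 and 5.37. Hsd11b1, which regenerates active glucocorticoid, was lower by -0.86 (6.24, 5.85 and 6.40 against 5.83, 5.27 and 4.82), and Esr1, the estrogen receptor, was higher by 0.60 (8.26, 8.07 and 8.44 against 8.76, 9.05 and 8.76). All 4 had separate groups.

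Of 44 androgen response genes, a set drawn mostly from prostate cells, 0 were higher and 5 lower at an unadjusted p under 0.05 (3.09% and 1.63% of all genes). Yet 30 of 44 had a positive difference. Sham 2 was the lowest of the 6 arrays in 29 of the 44, and the median of 0.13 was -0.05 without it. Without sham 2, 1 was higher and 6 lower at that level. Azgp1 (-0.53, with a dim sham mean of 3.86), Tsc22d1 (-0.20), Slc38a2 and Fkbp5 were the members of smallest p. Of 25 glucocorticoid response genes, 4 were higher and 2 lower (3.09% and 1.63% of all genes), with a median of 0.15. Without sham 2, 4 were higher and 4 lower (1.85% and 2.06% of all genes), with a median of -0.03. The glucocorticoid receptor Nr3c1 read 8.68, 8.18 and 8.35 against 8.55, 8.62 and 8.70.

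With all arrays, the fat genes Scd1 and Adipoq had the 2 largest downward differences among separate genes of at least log2 6, and they varied widely among the sham arrays. Without sham 2, Nmrk2 (-2.61) and Smox (-2.49) exceeded both. Adipoq, the adipocyte hormone adiponectin, read 6.65, 9.16 and 8.26 in sham and 5.54, 5.58 and 5.29 after castration. Scd1, the desaturase of fat synthesis, read 7.91, 10.57 and 9.33 against 6.76, 7.10 and 6.20. The groups were separate for both, sham 2 was the highest array, and the differences of -2.56 and -2.58 were -1.99 and -1.93 without it (adjusted p 0.838 for both with all arrays). Cyp2e1, a cytochrome P450, read 6.13, 7.94 and 6.77 against 4.60, 4.39 and 4.78, and the thyroid-responsive lipogenic factor Thrsp read 6.23, 8.60 and 6.68 against 5.98, 5.98 and 5.77. Ifi27l2a, an interferon-induced gene, had the same order of arrays, at 6.03, 8.64 and 7.26 against 4.90, 5.33 and 4.70.

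The adipocyte markers were lower along with these genes. Of 14 measured, 13 were lower after castration, 1 at an unadjusted p under 0.05 (1.63% of all genes), and sham 2 was the highest of the 6 arrays in 11. Their summed level, the mean deviation from the gene means, was -0.18, 1.04 and 0.18 in sham and -0.32, -0.39 and -0.34 after castration, and the median difference of -0.61 was -0.14 without sham 2. Fabp4, the fat-cell fatty acid carrier that vessels also make, read 10.72, 11.31 and 11.04 against 10.87, 10.74 and 10.58. The brown fat markers Cidea and Ucp1 read 6.27 and 5.84 on sham 2 and stayed between 3.11 and 3.50 on the other 5 arrays. The part of fat in the dissected tissue in the values of Scd1, Adipoq, Cyp2e1 and Thrsp was not tested.

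In lipid and sterol synthesis, 0 of 37 genes were higher and 3 lower at an unadjusted p under 0.05 (3.09% and 1.63% of all genes). Lpin1, which makes diacylglycerol and is well expressed in muscle, was lower by -0.36 with little spread (9.77, 9.54 and 9.76 against 9.30, 9.39 and 9.30). Dgat2, which completes triglyceride synthesis, was lower by -1.04 and read 8.35 on sham 2. The list median of -0.04 was -0.05 without sham 2.

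The 10 genes in which sham 2 lay farthest above the other sham arrays were also mixed. The leukocyte coronin Coro1a read 3.34, 6.17 and 3.32 in sham, the lymphocyte antigen Cd52 2.95, 5.94 and 3.14, the MHC class II chain Cd74 5.84, 8.27 and 5.75 and the antibody chain Igha 3.25, 5.65 and 3.24. The kinase Pik3cd, the receptor segment Trav9d-3, the RNA editor Adarb1, the guidance factor Sema3f, Cidea and Fasn, the fatty acid synthase (5.82, 8.73 and 6.48), complete the 10. The castration arrays of Coro1a lay at 3.20 to 3.39 and those of Cd74 at 5.76 to 6.14, beside sham 1 and sham 3. Outside the comparison, testosterone 2 was also high, at 7.13 for Coro1a, 7.26 for Cd52 and 9.00 for Cd74, but not for Igha (3.40).

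The 10 genes in which sham 2 lay farthest below the other sham arrays were of several kinds. Tnmd, the tendon membrane protein tenomodulin, read 6.57, 4.45 and 6.65 in sham and 6.94, 7.11 and 6.49 after castration, and the fibril proteoglycan Ogn read 7.27, 5.06 and 7.20 against 7.01, 7.18 and 6.59. The collagen chain Col5a2 read 6.38, 4.21 and 6.26 against 6.17, 6.54 and 6.26. The castration arrays again lay beside sham 1 and sham 3. Igf1, Nmrk2, Klf4, Svip, Errfi1, Neo1 and Sln, a regulator of the calcium pump, complete these 10, and Sln differed among all arrays, at 7.75, 4.55 and 6.18 against 6.43, 5.38 and 4.47.

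The medians of the matrix and collagen lists were smaller in size without sham 2, and that of the tendon markers less so. Matrix genes other than collagens had 30 of 40 higher, sham 2 lowest in 30, and a median of 0.16 that was -0.03 without sham 2. Lamb2, a laminin chain of the fibre's basement membrane, was higher by 0.47 and still by 0.38 without sham 2 (7.14, 6.99 and 7.37 against 7.77, 7.68 and 7.47), while Postn, a remodelling protein, went from 0.57 to 0.30. Of 28 collagens 2 were higher and 0 lower at an unadjusted p under 0.05 (3.09% and 1.63% of all genes), with Col14a1 at 3.37, 3.06 and 3.37 against 4.08, 4.66 and 3.63. The collagen median of 0.11 was 0.02 without sham 2. The collagen modifier P4ha1 was higher by 0.66 and the protease inhibitor Timp3 by 0.34. Gsn, gelsolin, a fibroblast marker that cuts actin filaments, was lower by -0.42 (11.01, 10.69 and 10.91 against 10.44, 10.52 and 10.40), with all 6 probe sets of that sign. Fibroblast and tendon marker medians were 0.06 and 0.13, then 0.01 and 0.10.

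Vessel markers were higher in 15 of 19, with a median of 0.21 that was 0.17 without sham 2. Their summed level was 0.01, -0.36 and -0.00 in sham and 0.20, 0.11 and 0.04 after castration. Cdh5, the junction protein of endothelium, read 5.78, 5.13 and 6.03 against 6.27, 6.24 and 5.97, and Ramp2 was higher by 0.61 and Esam by 0.40. In all, 2 of the 19 were under an unadjusted 0.05, against 4.72% of all genes, and 0 without sham 2, against 3.91%. With array weights the median was 0.045. Smooth muscle and pericyte markers had a median of 0.12, then 0.03.

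Blood and skin markers were mostly dim. Macrophage and MHC class II markers were lower in 17 of 21, with summed levels of -0.03, 0.34 and -0.03 in sham and -0.15, -0.02 and -0.11 after castration and a median of -0.19, then -0.08. B cell markers were lower in 11 of 13 and T and NK cell markers in 10 of 14, with medians of -0.08 and -0.05 that were 0.01 and -0.00 without sham 2. Epidermal markers were lower in 16 of 18, among them Krt10 (5.32, 6.72 and 5.08 against 5.05, 5.05 and 5.01), and 16 of the 18 had means under log2 4. None of these lists had a member under an unadjusted 0.05 with all arrays. Neutrophil and mast cell, red blood cell and nerve markers had medians of -0.07, -0.12 and 0.02.

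Immediate early genes, which respond within minutes to handling or contraction, had 0 of 30 members under an unadjusted 0.05 and a median of 0.05. Egr1 varied most among castration arrays, at 4.51, 6.18 and 4.73. Of 44 cytosolic ribosomal protein genes, 32 were higher and 0 were under an unadjusted 0.05, and the median of 0.04 was 0.03 without sham 2.

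Over the 48 lists, most positive medians shrank and most negative medians came closer to 0 when sham 2 was left out, while the median of all 18194 genes went from 0.01 to 0.00. The calcium and vessel lists were among those that kept most of their size in that comparison. Plet1os, a transcript named for the strand opposite Plet1, and Adhfe1, a hydroxyacid dehydrogenase, were also among the largest higher differences (1.40 and 1.16, then 1.10 and 1.07 without sham 2). Hmga2-ps1 was lower by -0.85 and by -1.39 without sham 2 (adjusted p 0.0843), but as a pseudogene its probes may also bind the parent transcript.

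**Figure D5:**
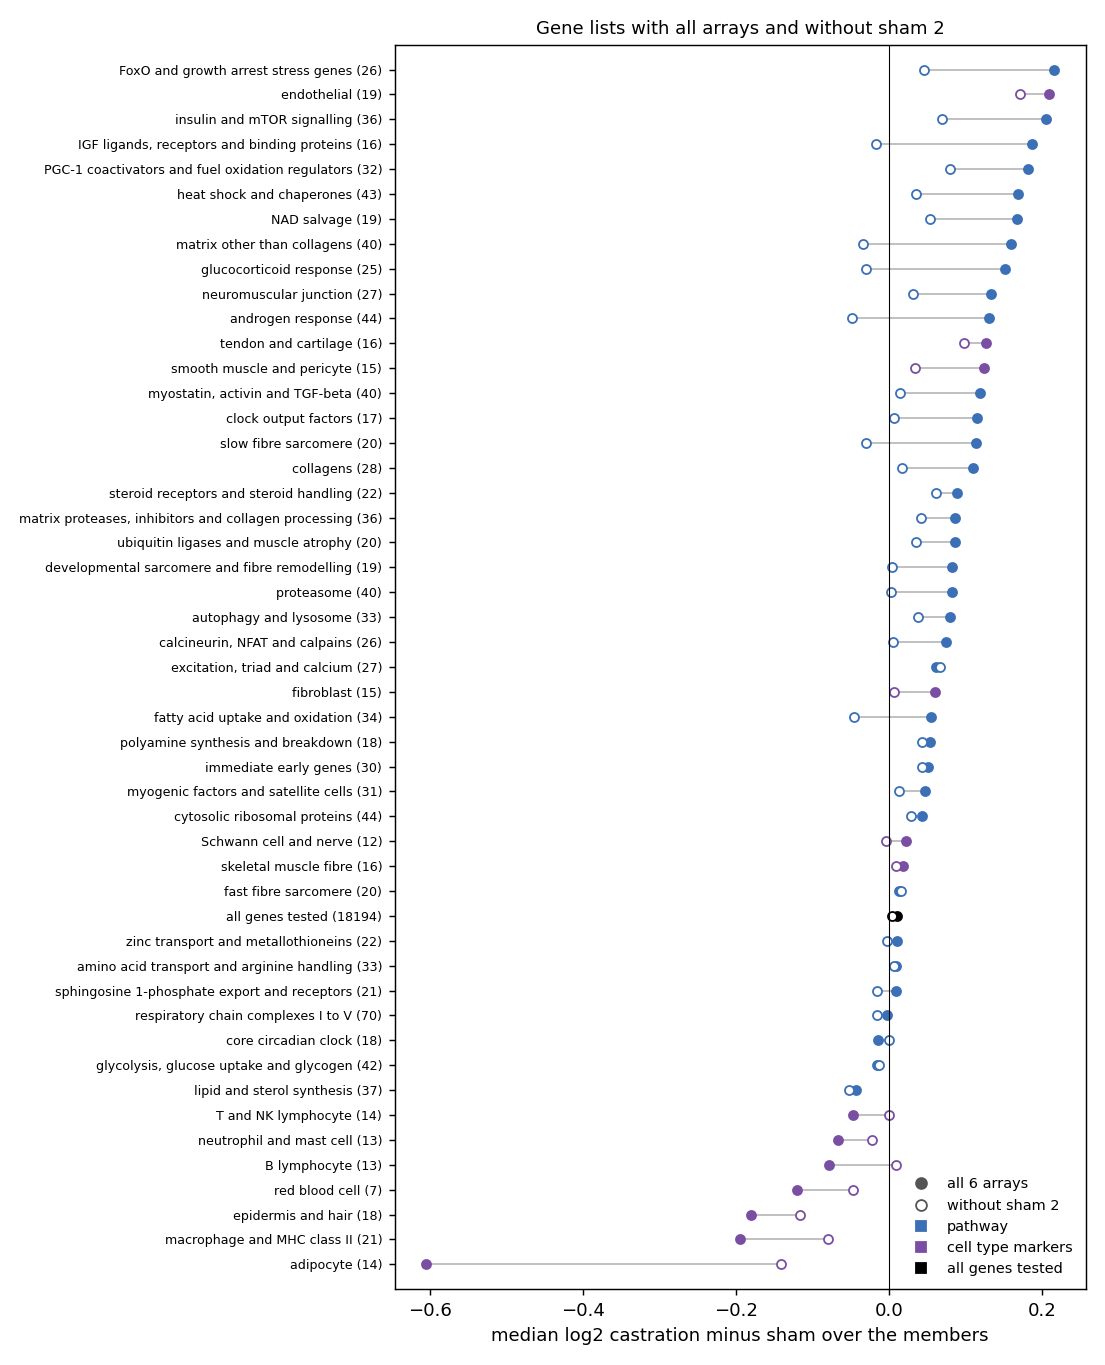
Median log2 castration minus sham difference (horizontal axis) over the measured members of 48 gene lists (vertical axis, members in parentheses) and over all genes tested, with all 6 arrays (filled) and without sham 2 (open), joined by a line. The pathway lists with the largest positive medians shorten towards 0 without sham 2, and the adipocyte list moves from -0.61 to -0.14.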

How the data were processed

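RNA of 9 pools of gastrocnemius was hybridised to Affymetrix mouse arrays, 12 µg of pooled RNA per array (4 µg from each of 3 animals), per the labels. The submitters' processing notes name RMA, without a version, as the step by which the authors made the deposited log2 levels. RMA subtracts background, brings the arrays to a common distribution by quantiles and combines the probes of a set, so an array that stands apart can shift the reference for the others. Precision is limited by the number of arrays, 3 per group, which have no read depth.

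There were 45101 probe sets: 64 were controls, 34945 had 1 gene in the platform annotation, 932 several and 9160 none listed. Symbols were updated through gene identifiers, and 204 probe sets kept the annotation's symbol. The brightest probe set of each gene over all arrays gave 18194 genes, with no filter on dim genes.

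Groups came from the sample titles. Group differences were estimated and tested in R 4.3.3 by limma 3.58.1 (lmFit, eBayes, group as the only term, all 9 arrays), two-sided, with Benjamini-Hochberg adjustment over 18194 genes and a threshold of 0.05. The design text describes a one-way analysis, with pairs of groups compared. An exact permutation test of 3 arrays against 3 cannot go below 0.1. Alternatives left out each array in turn or sham 2 with testosterone 2, used only both groups compared, a block for the replicate number, array weights, renewed quantile normalization, median centring, genes of mean at least log2 5, the mean of all probe sets of a gene, leaving out sets whose suffix marks possible cross-hybridization, an intensity trend, or no moderation of variances. The fitting script was tested on simulated data.

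The comparison, the 48 lists (35 pathways and 13 sets of markers), the rule for named genes and the alternatives were chosen with earlier results of these data known. Named were the 20 genes of smallest p in each direction, the 10 largest differences in each direction with separate groups and a higher mean of at least log2 6, the 10 of smallest p without sham 2 and any passing there, the 10 with the widest gap between sham 2 and the other sham arrays in each direction, and up to 4 members of smallest p and members of known role from each list described. Lists are described by counts and medians with no test. Promoter windows were matched by symbol in the RefSeq table of build GRCm38.p6.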

Additional observations from a re-analysis of the deposited data

How the results depend on the processing

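Leaving out 1 array gave 0 to 7 genes lower at an adjusted p of 0.05, the 7 only without sham 2, and 0 higher under each such setting. It gave 319 to 1549 genes higher and 164 to 726 lower at an unadjusted p under 0.05, and 1459 to 2999 higher and 1062 to 1977 lower with separate groups, a count that rises by construction with fewer arrays. For every other value below the cause was not tested. Sham 2 and testosterone 2 left out together gave 5 higher and 13 lower adjusted, 483 lower unadjusted, and 1572 higher and 1555 lower with separate groups. Array weights gave 97 higher and 77 lower adjusted and 1763 and 1532 unadjusted, with weights of 4.61, 0.164 and 0.644 for the 3 sham arrays, so these calls rest mostly on sham 1. Renewed quantile normalization gave 1 higher (Per3) and 4 lower (Smox, Spns2, Inmt and Mss51) adjusted and 1091 lower with separate groups. The mean of the probe sets gave 1 higher (Dbp) and 1 lower (Smox, at -1.18 against -2.26 for its brightest probe set). An intensity trend gave 2 lower (Smox and Mss51). Genes of mean at least log2 5, which are fewer, gave 287 higher and 78 lower unadjusted and 615 and 153 with separate groups. Smox was lower at an adjusted p under 0.05 with array weights and under each of the 3 settings before that one. It did not pass in the main fit, which had group as the only term and no weights or trend (adjusted p 0.103).

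List medians kept their value within the spread between arrays in 889 of 954 cases. Sham 2 was part of that spread, so the measure is lenient towards leaving sham 2 out. Medians that counted as kept without sham 2 include matrix genes other than collagens (0.16 to -0.03), androgen response (0.13 to -0.05) and insulin and mTOR (0.20 to 0.07). Over arrays left out in turn, the medians that moved ran from 0.046 to 0.302 for growth arrest, -0.017 to 0.242 for IGF, -0.030 to 0.214 for glucocorticoid response, 0.035 to 0.222 for heat shock, 0.037 to 0.149 for autophagy, 0.061 to 0.115 for calcium, 0.003 to 0.079 for immediate early, 0.012 to 0.116 for myogenic, -0.016 to 0.054 for sphingosine, -0.823 to -0.141 for adipocyte, -0.189 to -0.047 for red blood cell and -0.005 to 0.035 for Schwann cell lists. Without sham 2 and testosterone 2 they were 0.046 for growth arrest, -0.017 for IGF, -0.03 for glucocorticoid response, 0.012 for myogenic, 0.035 for heat shock, -0.141 for adipocyte, -0.047 for red blood cell and -0.005 for Schwann cell lists. Array weights gave 0.086, -0.028, 0.008, -0.003, -0.171, 0.045, -0.009 and -0.009 for growth arrest, IGF, myogenic, immediate early, adipocyte, endothelial, red blood cell and Schwann cell lists. Renewed quantile normalization gave 0.009, 0.024, -0.019, 0.061, -0.02, 0.082, -0.028, 0.03, -0.044, -0.043 and 0.0 for glucocorticoid, NAD, autophagy, growth arrest, proteasome, IGF, developmental, myogenic, calcineurin, glucose and immediate early lists. Median centring gave 0.045, 0.078, 0.093, 0.016, 0.074, 0.05 and 0.054 for fast fibre, myogenic, calcium, glucose, ribosomal, muscle fibre and Schwann cell lists. Genes of mean at least log2 5 gave 0.218, 0.079, 0.082, 0.073, -0.115, 0.151, 0.166, 0.277, 0.27, 0.457 and -0.396 for steroid receptor, amino acid, sphingosine, myogenic, lipid, zinc, immediate early, collagen, matrix protease, tendon and macrophage lists. The mean of the probe sets gave 0.02, 0.118 and -0.004 for junction, calcium and Schwann cell lists.

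Of 139 genes whose difference is given, 5 turned sign under some setting: without cross-hybridizing probe sets Prkag2 (0.019), Ak4 (-0.103) and Tbc1d1 (0.155), under quantile normalization Notch1 (-0.006), and Myh7 with array weights (-0.136) and without castration 1 (-0.074; 0.013 to 0.376 with each other array of either group left out). The replicate numbers did not pair the samples: deviations of same-numbered sham and castration arrays correlated at 0.134, -0.424 and -0.489. With the replicate block 0 genes passed, and 591 were higher and 249 lower at an unadjusted p under 0.05. With only both groups compared these counts were 521 and 237, and without moderation 397 and 366. Each group has 3 pools, sham has 2 without sham 2, and 10678 of the 18194 genes had a mean under log2 4, with no detection calls used.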
